A study of Mus musculus with 16 samples.

Results

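The 34 genes described here encode the enzymes, regulators and transporters of sterol and fatty acid synthesis that are under the control of the SREBP and LXR transcription factors, and they were taken by name. All 34 were listed in both expression tables, which held 17128 genes for splenic plasmacytoid DCs (pDCs) and 17721 genes for conventional DCs (cDCs). They comprised 7 enzymes of the mevalonate stage, 11 of the sterol stage, 5 regulators of SREBP, 3 sterol transport proteins, the 2 LXRs and 6 enzymes of fatty acid synthesis. A member was tested where its mean TPM (RSEM transcript abundance, scaled for transcript length and library size) was at least 1 over the fitted libraries, which 32 members were in pDCs and 33 in cDCs. Abca1 fell below that level in both tables and Scd1 in pDCs.

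RNA-seq was performed on pDCs, cDC1s and cDC2s sorted from spleens of C57BL/6 mice aged 6 to 8 weeks. WT mice carried Trim33 fl/fl and no Cre, and cKO mice carried Trim33 fl/fl together with Itgax-Cre, whose Cre is driven by the promoter of CD11c and so acts in any CD11c-expressing cell. Each genotype had 3 libraries for pDCs, 2 for cDC1s and 3 for cDC2s, each made from a pool of several mice, with more mice in a cKO pool than in a WT pool. The gates that the paper gives for sorted splenic DCs were CD11c+ SiglecH+ for pDCs, CD11c+ SiglecH- MHC II+ CD24+ CD172a- for cDC1s and CD11c+ SiglecH- MHC II+ CD24- CD172a+ for cDC2s. They are given there for measurements of Trim33 itself and are not restated for the sequenced cells.

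Estimated depth ran from 17.97 to 20.17 M reads, and within a group the libraries correlated across genes with r between 0.991 and 0.997, where genes are not independent replicates. Trim33 stood at 20.6 to 23.8 TPM in WT and 11.7 to 16.5 TPM in cKO pDCs, at 15.5 and 18.2 TPM against 7.88 and 7.71 TPM in cDC1s, and at 17.2 to 20.6 TPM against 7.13 to 8.07 TPM in cDC2s. It was lower in all cKO than in all WT libraries of each subset, with adjusted p values of 0.000349 in cDC1s, 0.000126 in cDC2s and 0.0301 in pDCs (0.00361 with the replicate number as a block). The 10 pDC markers summed to 18135 TPM or more in pDC libraries and to at most 413 TPM in cDC libraries. The 9 cDC1 markers summed to 5132 to 5454 TPM in cDC1s and 487 to 642 TPM in cDC2s, and the 9 cDC2 markers to 1428 to 1777 TPM in cDC2s and 53.1 to 70.8 TPM in cDC1s. Both of these lists were also expressed in pDC libraries, at 3680.4 to 4238 TPM and 2034 to 2325 TPM. Haemoglobin and other erythroid genes varied widely among libraries of 1 group, with sums of 385 and 3193 TPM in the WT cDC1 libraries and 1273 to 10743 TPM in WT cDC2 libraries.

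Cholesterol is built from acetyl-CoA through a mevalonate stage that ends in isoprenoids and a sterol stage that runs from squalene through lanosterol. SREBPs are made as membrane-bound precursors in the endoplasmic reticulum, SCAP escorts them to the Golgi for cleavage when sterols are scarce, and INSIG proteins hold them back when sterols are plentiful. LXRs respond to oxysterols and induce the exporters ABCA1 and ABCG1, and they also induce Srebf1. In DCs, fatty acid synthesis is known to supply membrane for the endoplasmic reticulum and Golgi upon activation.

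WT pDCs held the highest levels of the sterol genes. The 18 sterol synthesis members (mevalonate and sterol stages) summed to 1006 to 1229 TPM in WT pDCs, 369 to 377 TPM in WT cDC1s and 316 to 324 TPM in WT cDC2s. The pDC and cDC tables were normalised apart over different gene sets, so these levels stand side by side without a test. All 18 had their highest mean in WT pDCs, with a median ratio of 3.54 to WT cDC1s and 3.17 to WT cDC2s, against 1.27 and 1.13 over the 10227 genes with a mean of at least 1 TPM in each of the WT groups, of which 53.1% were highest in pDCs. Dhcr7, the last reductase of the pathway, stood at 88.5 TPM in WT pDCs, 11.96 TPM in WT cDC1s and 13.0 TPM in WT cDC2s. Msmo1, a sterol C4 methyl oxidase, stood at 133.5, 21.8 and 28.4 TPM in the same order.

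The regulators followed the enzymes in part. Insig1 stood at 174 to 195 TPM in WT pDCs against 16.8 and 31.6 TPM in WT cDC1s and 24.8 to 38.0 TPM in WT cDC2s. Scap stood at 170 to 179 TPM in WT pDCs and at 42.3 to 61.6 TPM in the WT cDC libraries. Srebf2, which encodes the SREBP of cholesterol genes, differed less, at 222 to 243 TPM in WT pDCs, 139 and 148 TPM in WT cDC1s and 158 to 219 TPM in WT cDC2s. Of the 32 members with a mean of at least 1 TPM in each WT group, 27 were highest in pDCs.

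The exceptions were Abcg1, Insig2, Nr1h2 and Fasn, highest in WT cDC1s, and Nr1h3, highest in WT cDC2s. Abcg1, a sterol exporter, stood at 71.4 and 54.4 TPM in WT cDC1s, 29.4 to 38.5 TPM in WT cDC2s and 15.3 to 18.7 TPM in WT pDCs, with no overlap between the groups. Nr1h3, which encodes LXR-alpha, stood at 11.0 to 19.0 TPM in WT cDC2s, 0.91 and 1.53 TPM in WT cDC1s and 1.47 to 2.92 TPM in WT pDCs. Nr1h2, which encodes LXR-beta, was far more even, at 94.9 to 154 TPM in all WT libraries. Abca1, the other exporter, stayed between 0.23 and 1.46 TPM in all WT libraries. At these depths 1 TPM corresponded to 16.2 to 21.2 reads on a transcript of 2000 bases, and 3 reads to 0.142 to 0.185 TPM. A longer transcript has more reads per TPM, and the transcript length of Abca1 was not used here.

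**Figure D1:**
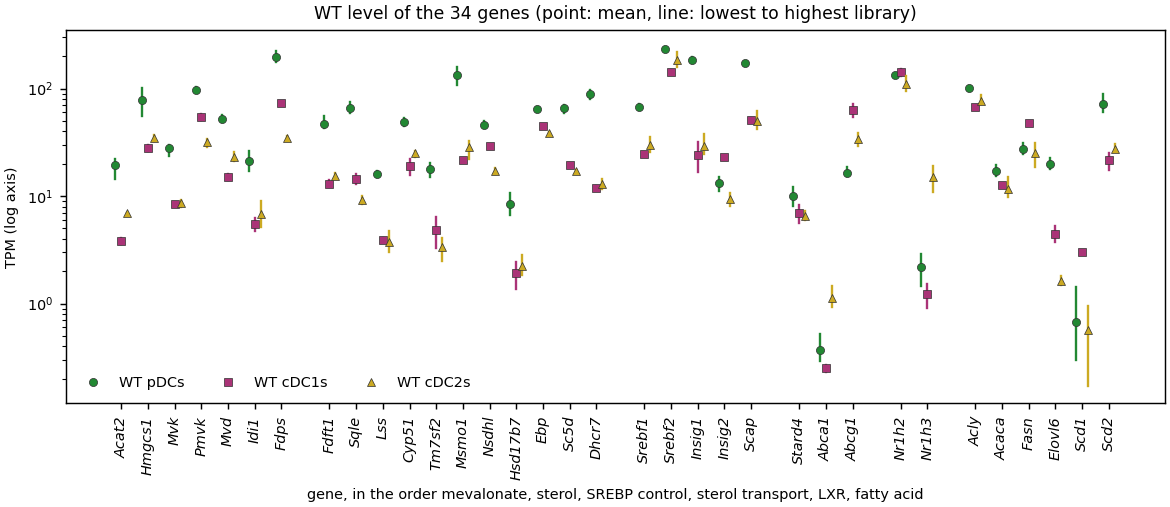
WT level in TPM (log axis) of the 34 genes in pDCs, cDC1s and cDC2s, with the mean as a point and the lowest to highest library as a line. The pDC points lie above both cDC points for all 18 genes of the mevalonate and sterol stages, while Abcg1 is highest in cDC1s and Nr1h3 in cDC2s.

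Between WT cDC1s and WT cDC2s, which share a table, 12 of 33 members passed the test, 9 higher and 3 lower in cDC1s. Calls required an adjusted p no higher than 0.01 together with a log2 difference of 0.5 or more in size (limma, Benjamini-Hochberg adjustment over the tested genes), and by this rule 31.7% of all 11411 genes were called, 10.9% higher and 20.8% lower. Higher in WT cDC1s were Scd1 (log2 difference 1.40), Insig2 (1.21), Elovl6 (1.05), Fdps (1.03), Fasn (0.94), Abcg1 (0.88), Pmvk (0.77), Nsdhl (0.74) and Sqle (0.60). Lower were Nr1h3 (−2.84), Acat2 (−0.70) and Mvd (−0.59). Median-of-ratios scaling gave 10 higher and 2 lower, quantile normalization 9 and 1, and FPKM 8 and 3, while the share of higher calls over all genes moved from 34.4% as deposited to 51.4%, 51.3% and 41% in the same order. The median over all genes was −0.17 as deposited and 0.01 after median-of-ratios scaling, so small differences depend on the scaling. Of the 14 mature DC markers 4 were called higher and 1 lower in WT cDC1s, and of the 12 red pulp macrophage markers 10 were called lower, with sums of 226 and 180.3 TPM in WT cDC1s and 536 to 1111 TPM in WT cDC2s. Their part in the differences was not tested.

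Loss of Trim33 went with higher sterol and fatty acid synthesis genes in cDC1s. Of 33 members tested, 15 rose and 2 fell in cKO cDC1s, where 22.4% of all genes were called, 15.8% higher and 6.56% lower. The median log2 fold change was 0.65 over the members and 0.17 over all genes. The 18 sterol synthesis members summed to 369 and 377 TPM in WT and to 615 and 590 TPM in cKO cDC1s, and the 6 fatty acid members to 150 and 164 TPM in WT and 364 and 319 TPM in cKO cDC1s. All cKO libraries lay above all WT libraries for 27 of the 33 members and below them for 4, against 52.1% and 24.1% of all genes tested. In these bulk libraries, a change in the number of cells of a given state and a change in RNA per cell cannot be told apart.

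In the mevalonate stage 4 of 7 enzymes rose and none fell. Acat2, which condenses acetyl-CoA units at the entry, stood at 3.62 and 4.08 TPM in WT and 12.2 and 13.1 TPM in cKO cDC1s, a log2 change of 1.49 (SE 0.12) with an adjusted p of 3.77e-05. Hmgcs1, the HMG-CoA synthase that follows, stood at 26.1 and 29.7 TPM in WT and 58.4 and 49.2 TPM in cKO cDC1s, a log2 change of 0.92 (SE 0.12) with an adjusted p of 0.000367. Fdps, the farnesyl diphosphate synthase at the branch to sterols and prenylation, stood at 71.5 and 73.8 TPM in WT and 175 and 166 TPM in cKO cDC1s, a log2 change of 1.22 (SE 0.10) with an adjusted p of 4.67e-05. The WT and cKO libraries of these 3 genes lay far apart, with every cKO value above every WT value. Idi1, the isopentenyl diphosphate isomerase, also rose (log2 fold change 1.01, SE 0.24, adjusted p 0.00812), but its call was lost in 12 of 20 alternatives. Mvk reached an adjusted p of 0.00994 with a log2 fold change of 0.47, short of the limit on size, and Mvd (0.36) and Pmvk (0.13) did not pass.

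In the sterol stage 4 of 11 enzymes rose, and the other 7 had log2 fold changes between 0.06 and 0.75 without passing. Sqle, the squalene epoxidase at the head of the oxygen-dependent steps, stood at 12.9 and 15.9 TPM in WT and 27.7 and 24.7 TPM in cKO cDC1s, a log2 change of 0.82 (SE 0.14) with an adjusted p of 0.00167. Lss, which closes the rings to lanosterol, rose by 1.13 (SE 0.18), Cyp51, the lanosterol demethylase, by 0.92 (SE 0.16) and Dhcr7 by 1.01 (SE 0.13) on the log2 scale. Hsd17b7, a sterol ketone reductase, had a log2 fold change of 0.75 at levels of 1.36 to 3.82 TPM and an adjusted p of 0.0185. Msmo1 (0.49, adjusted p 0.0474) and Fdft1, the squalene synthase (0.41, adjusted p 0.014), also missed the threshold. Nsdhl (0.06), Tm7sf2 (0.20), Sc5d (0.21) and Ebp (0.22) showed the smallest differences of the stage.

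Of the 6 fatty acid synthesis members, 5 rose and none fell. Acly, which splits cytosolic citrate to acetyl-CoA, rose by 0.74 (SE 0.12) and Acaca, the acetyl-CoA carboxylase, by 1.08 (SE 0.20) on the log2 scale. Fasn, the synthase that builds palmitate, stood at 47.4 and 48.5 TPM in WT and 129 and 106 TPM in cKO cDC1s, a log2 change of 1.27 (SE 0.23) with an adjusted p of 0.00197. Elovl6, which lengthens palmitate, stood at 3.72 and 5.26 TPM in WT and 11.4 and 10.8 TPM in cKO cDC1s, a log2 change of 1.15 (SE 0.18) with an adjusted p of 0.000886. Scd2, a stearoyl-CoA desaturase, stood at 17.6 and 25.4 TPM in WT and 74.6 and 65.0 TPM in cKO cDC1s, a log2 change of 1.68 (SE 0.18) with an adjusted p of 0.00016. For each of these genes the cKO libraries lay above the WT libraries, and Scd2 had the largest positive fold change of the 33 members tested in the fit as deposited. The related desaturase Scd1 stood at 3.00 and 3.08 TPM in WT and 2.07 and 2.37 TPM in cKO cDC1s, with a log2 fold change of −0.33 and an adjusted p of 0.278.

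The regulators of SREBP split. Srebf1, which encodes the SREBP of fatty acid genes, stood at 24.9 and 24.8 TPM in WT and 42.4 and 40.6 TPM in cKO cDC1s, a log2 change of 0.72 (SE 0.16) with an adjusted p of 0.00635. Srebf2 stood at 139 and 148 TPM in WT and 232 and 206 TPM in cKO cDC1s, without overlap, but its log2 fold change of 0.60 (SE 0.16) had an adjusted p of 0.0142. It passed in 5 of 20 alternatives, among them FPKM (adjusted p 0.00838), the cDC1 libraries alone (0.00368) and leaving out WT cDC2 library 3 (0.00387), and its adjusted p over all 20 ran from 0.00368 to 0.107. Insig1, itself a target of SREBP, stood at 16.8 and 31.6 TPM in WT and 38.2 and 35.5 TPM in cKO cDC1s, a log2 change of 0.65 (SE 0.27) with an adjusted p of 0.0786, and passed without WT cDC1 library 2 (1.09, adjusted p 0.0085). Insig2, its paralog that holds SREBP back in the same way, fell from 23.5 and 22.8 TPM to 15.2 and 15.6 TPM, a log2 change of −0.56 (SE 0.13) with an adjusted p of 0.00782, and lost the call in 11 of 20 alternatives. Scap had a log2 fold change of 0.14 and an adjusted p of 0.587.

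Sterol transport changed in both directions. Abcg1 stood at 71.4 and 54.4 TPM in WT and at 14.1 and 14.6 TPM in cKO cDC1s, a log2 change of −2.04 (SE 0.18) with an adjusted p of 6.19e-05, the largest change among the members tested in cDC1s. Its level in cKO cDC1s was close to the 14.04 to 18.7 TPM of the pDC libraries of both genotypes, which come from the other table and were not tested against it. Stard4, a cytosolic sterol carrier, rose by 1.04 (SE 0.18, adjusted p 0.00179) on the log2 scale. Abca1 was low in all 4 libraries, at 0.27 and 0.23 TPM in WT and 0.23 and 0.17 TPM in cKO cDC1s, and was not tested. Neither LXR gene passed, with Nr1h3 at 0.91 and 1.53 TPM in WT and 0.42 and 0.48 TPM in cKO cDC1s (log2 fold change −0.60, adjusted p 0.108) and Nr1h2 at a log2 fold change of −0.03.

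**Figure D2:**
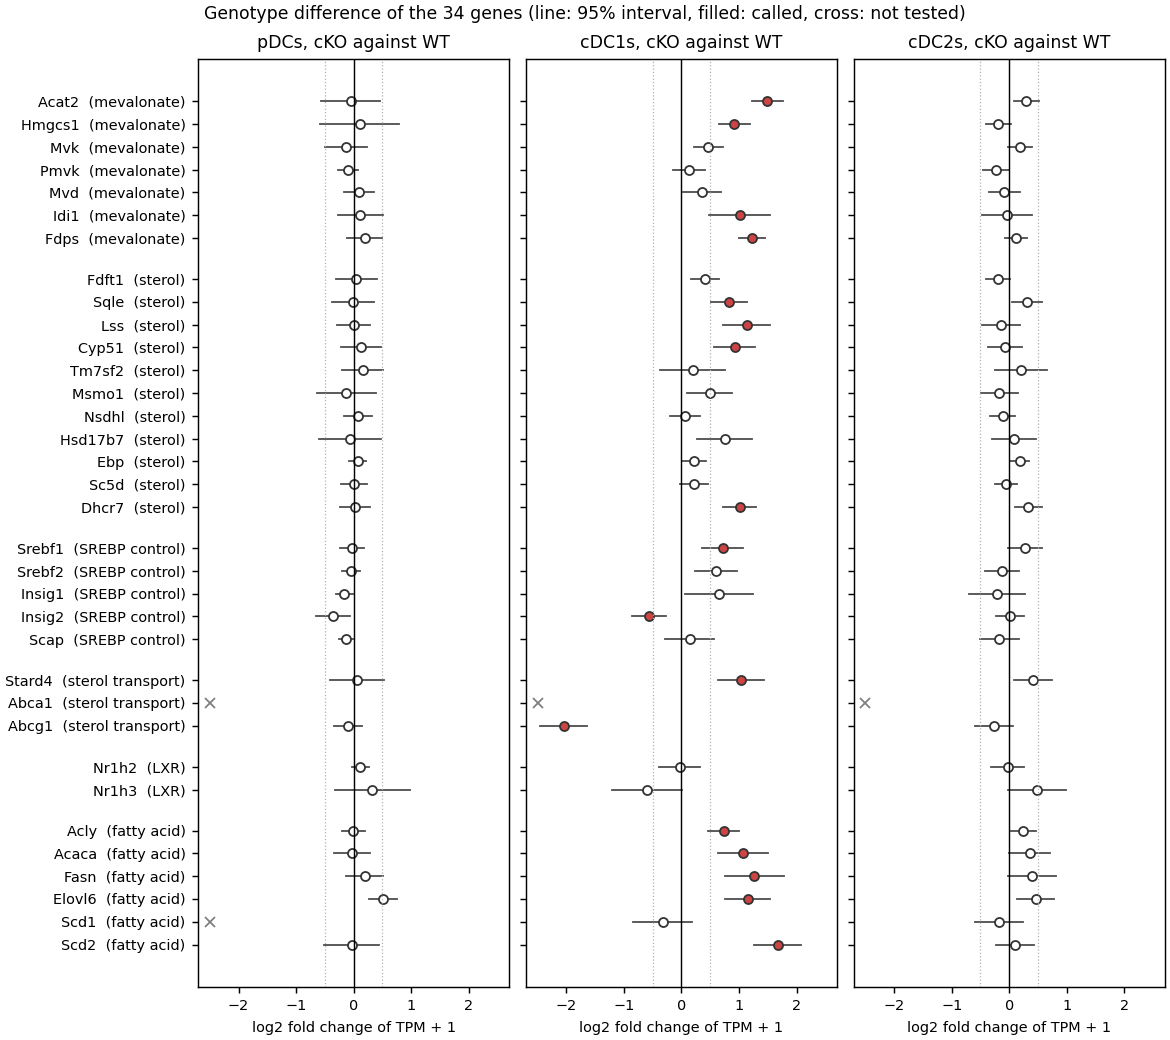
Log2 fold change of TPM + 1 (cKO over WT) of each of the 34 genes in pDCs, cDC1s and cDC2s, with the 95% interval as a line, filled points for called members, crosses at the left edge for members not tested and dotted lines at ±0.5. In cDC1s 15 filled points lie to the right and 2, Insig2 and Abcg1, to the left, and no point is filled in pDCs or cDC2s.

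The direction of the cDC1 result held under every scaling tried, and its size did not. Median-of-ratios scaling and quantile normalization each gave 13 members higher and 2 lower, with Idi1 and Cyp51 no longer called, and FPKM gave 15 and 2. The median over all genes moved from 0.17 as deposited to 0.02 after median-of-ratios scaling, and the member median from 0.65 to 0.48. The share of higher calls over all genes moved from 70.7% to 50%, 52.9% and 65.2% under median-of-ratios scaling, quantile normalization and FPKM. Single libraries decided many calls: 6 members passed without cKO cDC1 library 1, 11 without cKO cDC1 library 2 and 7 without WT cDC1 library 1, each with a lone library in 1 arm that was assumed to vary like the other groups. Without WT cDC1 library 2, 14 members passed, with Srebf1, Acaca, Fasn, Idi1 and Insig2 no longer called. Abcg1, Acat2, Dhcr7, Fdps, Hmgcs1 and Scd2 passed in all 20 alternatives, while Srebf1 lost its call in 6, Cyp51 in 5, Acaca in 4, Fasn and Lss in 3 each, Acly, Sqle and Stard4 in 2 each and Elovl6 in 1.

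**Figure D3:**
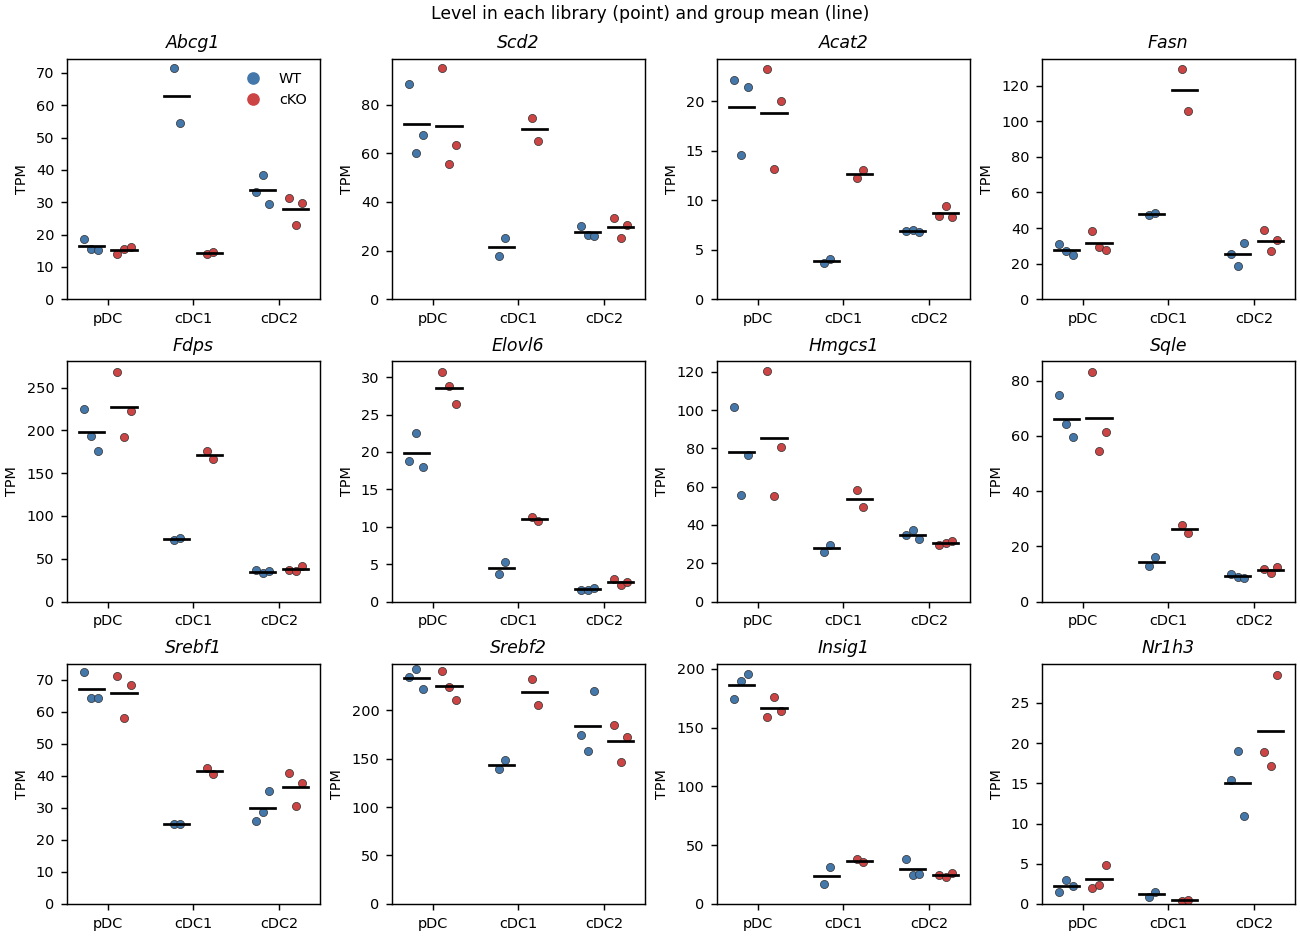
TPM of 12 of the genes in each library (points, WT blue and cKO red) with the group mean as a line, in pDCs, cDC1s and cDC2s. In cDC1s the red points lie above the blue ones for Scd2, Acat2, Fasn, Fdps, Elovl6, Hmgcs1, Sqle, Srebf1, Srebf2 and Insig1 and below them for Abcg1 and Nr1h3, while in pDCs and cDC2s most panels overlap.

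Markers of other states moved in the same libraries. Of 14 markers of mature DCs, 12 were called lower and none higher in cKO cDC1s, and their sum was 6018 and 3744 TPM in WT against 462 and 620 TPM in cKO cDC1s. Of 10 proliferation markers, 8 were called higher and none lower, and their sum was 505 and 698 TPM in WT against 1379 and 1362 TPM in cKO cDC1s. None of the mature DC or proliferation markers was at 0 in all libraries of any group. Of 12 red pulp macrophage markers, 2 were called lower and none higher, with sums of 226 and 180.3 TPM in WT and 58.2 and 65.6 TPM in cKO cDC1s. Of 10 monocyte markers, 8 were tested, 5 were called higher and 1 lower, with sums of 783 and 1003 TPM in WT and 729.9 and 733 TPM in cKO cDC1s. Of 10 pDC markers, 9 were tested, 3 were called higher and 2 lower, and their sum was 238 and 206 TPM in WT against 346 and 338 TPM in cKO cDC1s, all far below the sums in pDC libraries. Of the 9 cDC1 markers, Itgae, Cadm1 and Clec9a were called lower and none higher, and their sum was 5454 and 5269.6 TPM in WT against 5258 and 5132 TPM in cKO cDC1s. Of the 9 cDC2 markers, 2 were called higher and 2 lower, with sums of 53.1 to 70.8 TPM in all 4 libraries. Of 9 neutrophil markers, 5 were tested and none called, with sums of 1.88 and 17.4 TPM in WT and 23.1 and 43.0 TPM in cKO cDC1s, and 1 of 6 B cell markers was called lower. The B, T and NK cell sums were at most 35.5 TPM in all 4 libraries. The part of these shifts in the levels of the sterol and fatty acid genes was not tested.

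**Figure D4:**
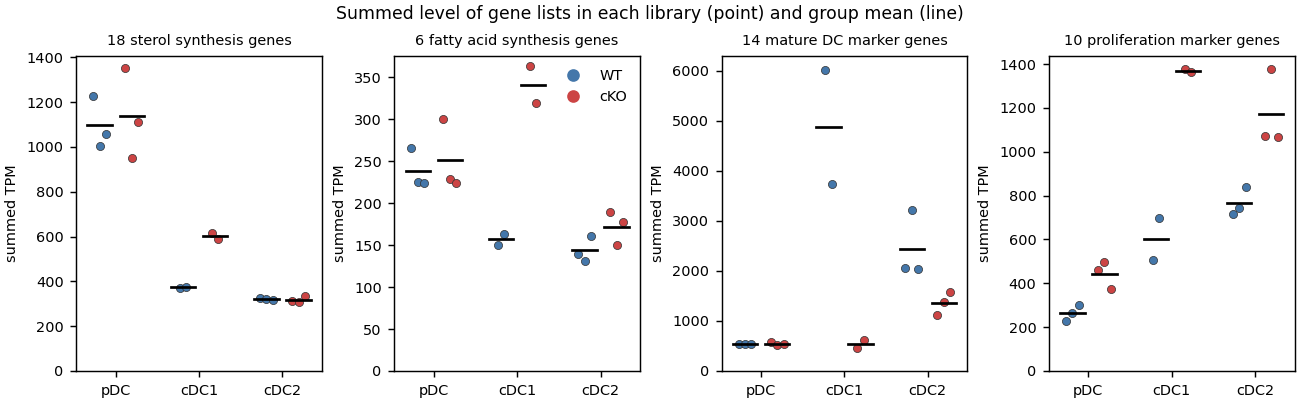
Summed TPM in each library (points, WT blue and cKO red) and group mean (line) of the 18 sterol synthesis genes, the 6 fatty acid synthesis genes, 14 mature DC markers and 10 proliferation markers. In cDC1s the mature DC sum is lower in cKO libraries and the other sums are higher. The mature DC sum is also lower in all cKO libraries of cDC2s, and it overlaps in pDCs. In cDC2s and pDCs the proliferation sum is higher in cKO libraries, and the sterol and fatty acid sums overlap.

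In cDC2s none of the same genes passed the test between genotypes. By limma with the same thresholds 0 of 33 members passed, against 7.15% of all genes, 3.59% higher and 3.56% lower. An unadjusted p under 0.05 was reached by 9 members, a level at which no share over all genes was computed. The median log2 fold change was 0.01 over the members and −0.03 over all genes, and the members ran from −0.26 to 0.48. The 18 sterol synthesis members summed to 316 to 324 TPM in WT and 306 to 336 TPM in cKO cDC2s. The 6 fatty acid members summed to 131 to 161 TPM in WT and 150 to 189 TPM in cKO cDC2s, with overlap. Of these 6, 5 had positive log2 fold changes and 1 a negative one, with a median of 0.30. Hmgcs1 stood at 34.9, 37.4 and 32.6 TPM in WT and 29.7, 30.4 and 31.6 TPM in cKO cDC2s, with a log2 fold change of −0.19 (95% interval −0.40 to 0.03). Sqle stood at 10.00, 8.95 and 8.45 TPM in WT and 11.8, 10.4 and 12.4 TPM in cKO cDC2s, with a log2 fold change of 0.30 (0.05 to 0.56). Both genes had groups that did not overlap, but in opposite directions, and 7 members had all cKO libraries above and 2 all below, against 16.3% and 19.2% of all genes.

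The other genes followed across subsets overlapped between WT and cKO cDC2s. Srebf1 stood at 25.9, 28.8 and 35.2 TPM in WT and 40.8, 30.4 and 37.8 TPM in cKO cDC2s, with a log2 fold change of 0.27 (−0.02 to 0.57). Srebf2 stood at 174, 158 and 219 TPM in WT and 185, 146 and 172 TPM in cKO cDC2s (−0.12, −0.42 to 0.17). Insig1 stood at 38.01, 24.8 and 25.1 TPM in WT and 24.6, 22.9 and 26.3 TPM in cKO cDC2s (−0.22, −0.70 to 0.27). WT library 3 was the highest for Srebf1 and Srebf2 among WT libraries and WT library 1 for Insig1. Fasn stood at 25.5, 18.5 and 31.4 TPM in WT and 38.8, 27.1 and 32.99 TPM in cKO cDC2s, with a log2 fold change of 0.40 (−0.02 to 0.81). Scd2 stood at 30.3, 26.3 and 26.1 TPM in WT and 33.4, 25.1 and 30.6 TPM in cKO cDC2s, with a log2 fold change of 0.10 (−0.24 to 0.43). These intervals leave room for changes of the size of the limit in Fasn and Srebf1 but not for the change of Scd2 seen in cDC1s. Abcg1 stood at 33.2, 38.5 and 29.4 TPM in WT and 31.4, 22.8 and 29.7 TPM in cKO cDC2s (−0.26, −0.60 to 0.07). Abca1 stood at 0.96, 1.46 and 0.93 TPM in WT and 1.47, 0.90 and 1.48 TPM in cKO cDC2s and was not tested. Nr1h3 stood at 15.3, 18.96 and 10.99 TPM in WT and 18.9, 17.2 and 28.4 TPM in cKO cDC2s (0.48, −0.02 to 0.98), with cKO library 3 the highest of the 6. None of these 3 separated the genotypes. The 2 members whose differences came closest to the threshold were Dhcr7 (0.33, adjusted p 0.0464) and Elovl6 (0.46, adjusted p 0.0487). Of the 14 mature DC markers 3 were called lower in cKO cDC2s, with sums of 2046 to 3221 TPM in WT and 1123 to 1571 TPM in cKO cDC2s, and of the 10 proliferation markers 2 were called higher, with sums of 715 to 838 TPM and 1069 to 1379 TPM. Of 8 monocyte markers tested, 4 were called higher and none lower, and the list summed to 2974 to 4166 TPM in WT and 4923 to 5860 TPM in cKO cDC2s, without overlap. Of 6 B cell markers tested, 3 were called lower and none higher, with sums of 72.7 to 82.0 TPM in WT and 56.2 to 58.6 TPM in cKO cDC2s. Of the 9 cDC2 markers, 3 were called higher and 3 lower, with sums of 1654 to 1777 TPM in WT and 1428 to 1660 TPM in cKO cDC2s. None of the 12 red pulp macrophage markers was called. Their sums were 1111, 1081 and 536 TPM in WT and 812, 646 and 1075 TPM in cKO cDC2 libraries 1, 2 and 3. Library 3 was the lowest of WT and the highest of cKO libraries for this sum and for Nr1h3. The part of these marker lists in the values of the members was not tested.

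The difference between the cDC1 and the cDC2 effect was tested directly in the joint fit. It passed for 5 of 33 members, 4 with a higher and 1 with a lower effect in cDC1s, against 2.56% of all genes, 1.21% higher and 1.35% lower. Scd2 differed by 1.58 (SE 0.24, adjusted p 0.00378), Acat2 by 1.20 (SE 0.15, adjusted p 0.00197), Hmgcs1 by 1.11 (SE 0.15, adjusted p 0.00267), Fdps by 1.11 (SE 0.13, adjusted p 0.00132) and Abcg1 by −1.78 (SE 0.24, adjusted p 0.00222) on the log2 scale. Lss (1.27, adjusted p 0.0114) and Cyp51 (1.00, adjusted p 0.0169) came close, and were named after their values were seen. For Srebf1 (0.44, adjusted p 0.18) and the fatty acid genes other than Scd2, of which Fasn differed most (0.87, adjusted p 0.0807), the 2 subsets were not shown to differ. The member median was 0.61 against 0.22 over all genes, and 0.40 against 0.01 after median-of-ratios scaling. The share of higher calls over all genes was 47.3% as deposited and 26.2%, 30.4% and 40.2% under median-of-ratios scaling, quantile normalization and FPKM, which called 3, 4 and 5 members higher and 1 lower each. No member passed without cKO cDC1 library 1, 1 without WT cDC1 library 1, 2 without cKO cDC1 library 2 and 3 without cKO cDC2 library 3.

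In pDCs, where the sterol genes were highest, none passed the test between genotypes. By limma without a replicate block 0 of 32 members passed, against 1.05% of all genes, 0.814% higher and 0.239% lower. In that fit 4 members had an unadjusted p under 0.05, a level at which no share over all genes was computed. The median log2 fold change was 0.004 over the members and −0.05 over all genes, and the 18 sterol synthesis members summed to 1006 to 1229 TPM in WT and 950 to 1353 TPM in cKO pDCs. Hmgcs1 stood at 102, 55.7 and 76.4 TPM in WT and 121, 55.2 and 80.7 TPM in cKO pDCs, with a log2 fold change of 0.10 (95% interval −0.58 to 0.79). Sqle stood at 74.8, 64.2 and 59.6 TPM in WT and 83.2, 54.4 and 61.4 TPM in cKO pDCs (−0.01, −0.37 to 0.35). Scd2 stood at 88.4, 60.2 and 67.6 TPM in WT and 94.8, 55.4 and 63.4 TPM in cKO pDCs (−0.04, −0.52 to 0.45). The groups of all 3 genes overlapped, and each gene was highest in library 1 of both genotypes. These intervals hold the spread between replicate numbers, and with the replicate block the SE fell from 0.295 to 0.063 for Hmgcs1, from 0.155 to 0.078 for Sqle and from 0.208 to 0.061 for Scd2, with adjusted p values of 0.299, 0.929 and 0.711. Of the 32 members tested, 1 had all cKO libraries above all WT libraries and 2, Insig2 and Scap, had them below, against 10.8% and 16.7% of all genes. Of the 10 proliferation markers 6 were called higher and none lower in cKO pDCs, with sums of 227 to 299.9 TPM in WT and 374 to 495 TPM in cKO pDCs, and the mature DC sum was 532 to 545 TPM in WT and 521 to 573 TPM in cKO pDCs. None of the 12 red pulp macrophage markers was called but all 12 had positive fold changes, with sums of 112 to 186 TPM in WT and 188 to 324 TPM in cKO pDCs. The T cell sum was 8.41 to 10.7 TPM in WT and 17.0 to 21.6 TPM in cKO pDCs, and the neutrophil sum 9.07 to 29.7 TPM in WT and 30.3 to 139 TPM in cKO pDCs, each higher in every cKO library. The monocyte sum was 4974 to 5669 TPM in WT and 5796 to 6010.0 TPM in cKO pDCs, also without overlap. Of 6 B cell markers tested, 1 was called higher and none lower. The B cell sum was 67.8 to 96.1 TPM in WT and 85.1 to 153 TPM in cKO pDCs, with overlap. Of 11 mature DC markers tested, 1 was called higher and 1 lower. Their part in the values of pDCs, those of Elovl6 included, was not tested.

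No SREBP regulator passed the test in pDCs. The sum of the 5 was 667 to 683 TPM in WT and 607 to 644 TPM in cKO pDCs, without overlap. Srebf1 stood at 72.5, 64.1 and 64.2 TPM in WT and 71.02, 58.1 and 68.2 TPM in cKO pDCs (−0.03, −0.24 to 0.18). Srebf2 stood at 234, 243 and 222 TPM in WT and 241, 224 and 210.3 TPM in cKO pDCs (−0.05, −0.21 to 0.10). Insig1 stood at 174, 189 and 195 TPM in WT and 159, 176 and 164 TPM in cKO pDCs (−0.16, −0.31 to −0.01). The 5 SREBP regulators all had log2 fold changes below 0, from −0.36 for Insig2 to −0.03 for Srebf1. Insig2 (95% interval −0.65 to −0.06), Insig1 and Scap had unadjusted p values under 0.05, with adjusted p values of 0.173, 0.216 and 0.208, and of 0.0321, 0.0787 and 0.102 with the replicate block. Abcg1 stood at 18.7, 15.4 and 15.3 TPM in WT and 14.04, 15.7 and 16.01 TPM in cKO pDCs (−0.10, −0.34 to 0.14). Nr1h3 stood at 1.47, 2.92 and 2.20 TPM in WT and 2.04, 2.38 and 4.89 TPM in cKO pDCs (0.32, −0.33 to 0.97). Fasn stood at 31.2, 26.9 and 24.6 TPM in WT and 38.6, 29.2 and 27.5 TPM in cKO pDCs (0.19, −0.13 to 0.51). The groups of these 3 genes overlapped, but Fasn was higher in the cKO library of all 3 same-numbered pairs, with an unadjusted p of 0.0225 and an adjusted p of 0.103 under the replicate block. Abca1, not tested, stood at 0.52, 0.29 and 0.30 TPM in WT and 1.16, 0.58 and 0.92 TPM in cKO pDCs, without overlap at this low level. Scd1, not tested either, stood at 1.42, 0.30 and 0.30 TPM in WT and 2.84, 0.28 and 0.60 TPM in cKO pDCs, with library 1 the highest of both groups.

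Among the 32 members tested in pDCs, Elovl6 had the largest fold change on the scale of log2(TPM + 1). It is described across the subsets because its values were seen to differ in each. It stood at 18.8, 22.6 and 17.97 TPM in WT and 30.6, 28.8 and 26.4 TPM in cKO pDCs, and at 1.61, 1.48 and 1.82 TPM in WT and 3.08, 2.19 and 2.66 TPM in cKO cDC2s. With the cDC1 libraries, in each subset all cKO values exceeded all WT values, and Elovl6 was the 1 member of the 34 for which that held in all the subsets. Taken by subset, this held for 10.8% of all genes tested in pDCs, 52.1% in cDC1s and 16.3% in cDC2s. The share of all genes for which it held in all the subsets at once was not computed. In pDCs the log2 fold change was 0.51 (SE 0.10, adjusted p 0.0375), and with the replicate block it was the 1 member called (adjusted p 0.00813), beside 335 genes called in all. In cDC2s it was 0.46 (SE 0.14, adjusted p 0.0487), short of the threshold.

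The spread of the sterol genes within pDC groups followed the replicate number in both genotypes. Library 1 was the highest of its group for 15 of the 18 sterol synthesis members in WT and 16 in cKO pDCs, and library 2 the lowest for 11 and 16. The sums over the 18 members were 1229, 1006 and 1056 TPM in WT libraries 1, 2 and 3, and 1353, 950.2 and 1112 TPM in the cKO libraries. Relative to the group mean, 16 of the 18 members lay above it in library 1 and 16 below it in library 2 in both genotypes at once. Across the 32 members tested, the deviations from the group mean correlated between same-numbered WT and cKO libraries at r = 0.826, 0.686 and 0.525, which is a description over genes that share libraries. The erythroid sum did not follow this order, at 1714, 6167 and 3251 TPM in WT and 4280, 1318 and 6382 TPM in cKO pDC libraries. The B cell sum did follow it, at 96.1, 67.8 and 77.3 TPM in WT and 153, 85.1 and 101 TPM in cKO pDC libraries. The monocyte sum was highest in library 1 of both genotypes. The red pulp macrophage, T cell and neutrophil sums did not follow the order in both genotypes. The part of other cells in this spread was not tested.

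**Figure D5:**
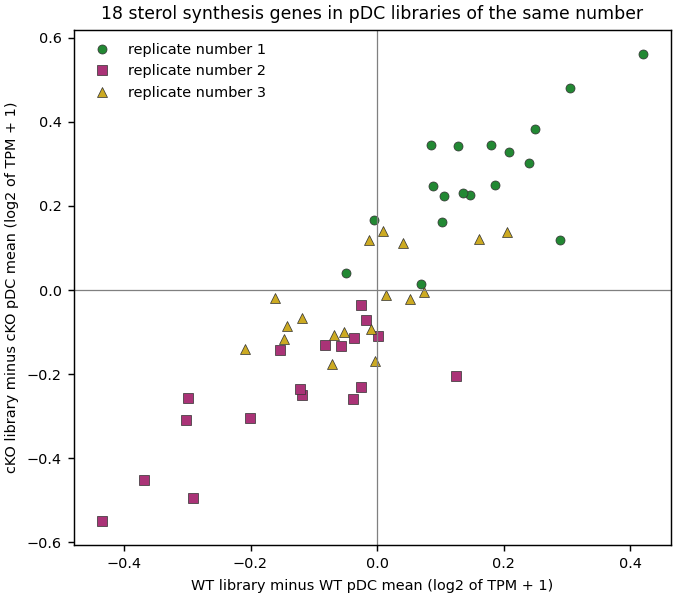
Deviation of each pDC library from its group mean (log2 of TPM + 1) for the 18 sterol synthesis genes, WT on the horizontal and cKO on the vertical axis, with 1 point per gene and replicate number. Points of number 1 lie in the upper right for 16 genes and points of number 2 in the lower left for 16 genes.

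Of the 52 further genes listed for sterol and fatty acid metabolism, 47 were tested in pDCs and limma called none, against 1.05% of all genes. Unadjusted p values below 0.05 were found for 14, a level at which no share over all genes was computed. For cDC1s 48 were tested, 6 were called higher and 6 lower, against 15.8% and 6.56% of all genes, with a median log2 fold change of 0.17, against 0.17 over all genes. Of these 12, 7 are named. Lbr, a sterol reductase of the inner nuclear membrane, rose by 0.93 on the log2 scale. Fads2, a fatty acid desaturase, rose by 1.68 and Acsl3, an acyl-CoA synthetase, by 0.92. Cyp27a1, which makes an oxysterol (−1.11), Mylip, an LXR-induced ubiquitin ligase (−0.92), Lpin1, a phosphatidate phosphatase (−1.23), and Pnpla2, a triglyceride lipase (−1.04), fell. In cDC2s 48 were tested, 4 were called higher and 1 lower, against 3.59% and 3.56% of all genes. These were Pltp, a lipid transfer protein induced by LXRs (2.204), Scarb1, a lipoprotein receptor (0.85), Fads1, a desaturase (0.61), Npc2, a lysosomal sterol carrier (0.50), and Arl4c, a small GTPase induced by LXRs (−0.61). Of the 48 tested, Pltp was also the 1 gene called for the difference between cDC1s and cDC2s (−2.25, adjusted p 0.00344). Over all genes 2.56% were called for this difference, 1.21% higher and 1.35% lower. The share of higher calls over all genes in cDC2s was 50.2% as deposited and 60.4%, 57.2% and 61% under median-of-ratios scaling, quantile normalization and FPKM.

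Promoter sequence was available for 27 of the 34 members in RefSeq (GRCm38.p6) as windows from 250 bases before to 50 after a start, and was searched on both strands for short motifs. CCAAT, the site of NF-Y, which is known to bind beside SREBP, was present in 20 of 27 members (74.1%), against 41.1% of 27025 genes with a promoter and 43.9% of the 9251 of them that were tested in cDCs. It was found in 9 of 9 sterol stage, 5 of 6 mevalonate stage, 4 of 5 regulator and 2 of 4 fatty acid members and in neither LXR gene. Among members that rose in cKO cDC1s 8 of 11 held it, and among the others 12 of 16. TCACNCCAC, the form of the sterol regulatory element searched here, was found in 1 of 27 members, Hmgcs1, against 1.44% of all genes, with its first base at −137 from the start counted as 0. The E-box CACGTG was found in 6 of 27 members (22.2%), against 8.09% of all and 11.7% of tested genes, and the GC box GGGCGG in 21 of 27 (77.8%), against 38.2% and 67.6%. A match is a string of letters and not a shown site.

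The 150 bases before the start are shown for 6 members that rose in cKO cDC1s, chosen to span the entry of the pathway, its later steps and fatty acid synthesis, with CCAAT or its reverse complement and TCACNCCAC in capitals. In Fasn a pair of CCAAT matches on opposite strands overlap, and in Acat2 there is none in these bases.
Acat2, chr17:12960726-12960875, minus strand: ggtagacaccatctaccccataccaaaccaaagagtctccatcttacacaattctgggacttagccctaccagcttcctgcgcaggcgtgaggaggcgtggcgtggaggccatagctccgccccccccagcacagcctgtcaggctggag
Hmgcs1, chr13:119690201-119690350, plus strand: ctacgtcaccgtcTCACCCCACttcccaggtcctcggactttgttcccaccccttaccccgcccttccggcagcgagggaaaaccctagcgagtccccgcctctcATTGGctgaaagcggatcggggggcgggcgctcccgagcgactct
Idi1, chr13:8885456-8885605, plus strand: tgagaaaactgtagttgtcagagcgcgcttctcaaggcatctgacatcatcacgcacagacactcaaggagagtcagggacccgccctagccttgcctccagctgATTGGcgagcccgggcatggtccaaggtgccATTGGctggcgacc
Lss, chr10:76531455-76531604, plus strand: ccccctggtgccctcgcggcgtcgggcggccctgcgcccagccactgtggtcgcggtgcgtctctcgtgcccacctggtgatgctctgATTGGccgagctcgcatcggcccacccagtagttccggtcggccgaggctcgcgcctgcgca
Cyp51, chr5:4104698-4104847, minus strand: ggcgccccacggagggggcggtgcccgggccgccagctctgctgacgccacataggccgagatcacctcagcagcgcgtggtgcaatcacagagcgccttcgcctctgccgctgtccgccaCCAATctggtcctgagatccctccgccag
Fasn, chr11:120824548-120824697, minus strand: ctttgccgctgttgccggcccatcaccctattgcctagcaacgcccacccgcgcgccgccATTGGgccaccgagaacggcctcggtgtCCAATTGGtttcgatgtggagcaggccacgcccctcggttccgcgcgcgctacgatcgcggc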

How the data were processed

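RNA-seq (BGISEQ-500, single-end 50-base reads) covered 16 libraries in 6 groups, assigned from the sample titles. Per the methods and the submitters' processing notes, reads were filtered with SOAPnuke, mapped with Bowtie2 2.2.5 and quantified with RSEM 1.2.12, and HISAT2 2.0.4 with mm10 is also named. The release of the transcript reference is not given in the sources used here. The authors deposited TPM in one table for pDCs and one for cDCs, and for both sets they deposited FPKM too. How genes were chosen for listing in either table is not stated in those sources, so nothing was tested across tables.

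Gene IDs were matched to RefSeq (GRCm38.p6), which named 17079 and 17667 of them. Since the values are not counts, the count model of the study (DESeq2) could not be run and only its thresholds were kept. The log2(TPM + 1) values were fitted with limma 3.58.1 in R 4.3.3 (lmFit, then eBayes with a mean-variance trend) over the 11299 pDC and 11411 cDC genes whose mean was 1 TPM or more. The pDC fit held 6 libraries and the cDC fit 10, with 1 mean per group and a common spread, and p-values are two-sided. A fold change on this scale understates the change of low genes. Intervals are 95% limma intervals. The paper describes each library as a biological repeat made from a pool of mice. How the pools of a group were prepared is not stated. The p-values therefore measure the spread between these pooled libraries and not between single mice. The scripts were tested on simulated data.

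In pDCs the deviations of same-numbered WT and cKO libraries correlated at 0.31, 0.392 and 0.206 over all tested genes. The main pDC fit has no term for the replicate number, so its calls and intervals are unpaired. A fit with the replicate number as a block, which takes same-numbered libraries as pairs, is given beside it for some genes.

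Depth was estimated by scanning 12 to 30 M reads for the value at which low FPKM became whole reads. Limits from depth cover counting error only, because the reads carried no molecular identifiers. The other tools were Python 3.11.15, pandas 2.3.3, numpy 2.4.6 and matplotlib 3.10.9.

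Values per library are given for the 6 called members with the largest fold changes and for 10 members followed in every subset. Every called member is named, as are at most 8 called genes of the further lists per contrast. A called gene of these lists is not reported here. Elovl6 outside cDC1s, members called between WT cDC1s and WT cDC2s, and examples without a call were named after their values were seen. The members, lists and tests were chosen with earlier results of these data known. The alternatives were a pseudocount of 0.1, no filter, FPKM, median-of-ratios scaling, quantile normalization, no trend, a looser threshold (adjusted p of 0.05, no limit on size), a replicate block, leaving out each library, and fitting a cDC subset alone.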

Additional observations from a re-analysis of the deposited data

Results flagged for a closer look

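The genotype effect differed between cDC1s and cDC2s, by the direct test in limma with Benjamini-Hochberg adjustment, for 5 of 33 members, against 2.56% of all genes. The difference on the log2 scale was 1.20 for Acat2 (adjusted p 0.00197), 1.11 for Hmgcs1 (adjusted p 0.00267), 1.11 for Fdps (adjusted p 0.00132), 1.58 for Scd2 (adjusted p 0.00378) and −1.78 for Abcg1 (adjusted p 0.00222). In cDC1s both cKO libraries lay above both WT libraries for the first 4 genes and below them for Abcg1. The same held for 52.1% (above) and 24.1% (below) of all genes tested in cDC1s. In cDC2s Fdps, Scd2 and Abcg1 overlapped between genotypes, Acat2 was higher in all 3 cKO libraries and Hmgcs1 lower. All cKO cDC2 libraries lay above all WT ones for 16.3% and below them for 19.2% of all genes tested. Over the 18 alternatives the adjusted p ran from 0.00126 to 0.0144 for Fdps, 0.00118 to 0.0161 for Acat2, 0.00267 to 0.022 for Hmgcs1, 0.00238 to 0.0311 for Scd2 and 0.000722 to 0.0178 for Abcg1. Without cKO cDC1 library 1 none of the 5 passed. Without WT cDC1 library 1 Acat2, Hmgcs1, Abcg1 and Scd2 did not pass, without cKO cDC1 library 2 Acat2, Abcg1 and Scd2 did not, and without cKO cDC2 library 3 Hmgcs1 and Scd2 did not. Hmgcs1 and Scd2 also did not pass with the replicate block, nor Hmgcs1 after median-of-ratios scaling (adjusted p 0.0108) or Scd2 without the filter (adjusted p 0.0114).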

How the results depend on the processing

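No called member reversed under any alternative. Of 22 calls of single members (17 in cDC1s and 5 of the difference), 6 passed in every alternative, all of them in cDC1s. With 17 members called in cKO cDC1s, leaving out 1 library gave 6 to 18, and all other alternatives gave 14 to 22. Over all genes, the count in pDCs moved from 119 to 24 without the filter, 56 without the trend, 335 with the replicate block, 514 at the looser threshold and 12 to 97 with 1 library left out. In cDC1s it moved from 2555 to 4522 at the looser threshold and to 800 to 2888 with 1 library left out, and in cDC2s from 816 to 2274, to 316 to 907 and, with that subset alone, to 444. For the difference it moved from 292 to 1286 at the looser threshold, 145 with the replicate block and 77 to 282 with 1 library left out, and between the WT subsets from 3612 to 5557 at the looser threshold. For the difference between cDC1s and cDC2s (5), the looser threshold gave 9, the replicate block 3, and leaving out 1 library 0 to 6. In pDCs (0) the looser threshold and the replicate block each gave 1, and leaving out 1 library gave 0 throughout. In cDC2s (0) the looser threshold gave 2, and leaving out 1 library gave 0 throughout. Between WT cDC1s and WT cDC2s (12) leaving out 1 library gave 9 to 12.

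With the replicate block, 17 members were called in cDC1s, 0 in cDC2s and 11 between WT cDC1s and WT cDC2s, and in the cDC groups the samples share only a number (same-number correlations −0.233 in cDC1s, −0.249, 0.253 and −0.165 in cDC2s). Crossing the cDC1 numbers, an alternative chosen after seeing the data, called 16 members and 2156 genes, against 17 and 2290 with the numbers as given and 17 and 2555 without a block.

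The sign of 5 fold changes that were not called turned. In pDCs Sqle became 0.017 with FPKM, 0.026 with median-of-ratios scaling and 0.013 with quantile normalization, and ran from −0.185 to 0.117 with 1 library left out. Srebf1 became 0.002 with FPKM and 0.011 with median-of-ratios scaling, and ran from −0.085 to 0.058. Scd2 became 0.002 with median-of-ratios scaling and ran from −0.26 to 0.122, and Hmgcs1 ran from −0.178 to 0.379. In cDC2s Srebf2 ran from −0.227 to 0.009, above 0 without WT library 3. The cause was not tested. With 2 libraries a genotype in cDC1s, leaving out 1 rests the arm on a lone library. Abca1 and Nr1h3 were low in cDC1s, and the number of reads behind their values depends on transcript length.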
